A study of Mus musculus with 75 samples.

Results

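Iron handling genes are described here in cells that the labels call EGC (enteric glial cells), the glia of the nerve networks in the gut wall. The 9 genes are Tfrc, Trf, Slc11a2, Slc39a14, Fth1, Ftl1, Slc40a1, Heph and Hmox1. They are 9 of the 21051 genes in the count table of the untreated and 2 h libraries and of the 21076 genes in the table of the 24 h libraries, and all 9 were found in both and passed the filter on low counts in all 3 experiments. The set was chosen by gene name from textbook iron metabolism, with results of these libraries already known, among them the low Slc40a1 values after lipopolysaccharide (LPS) in the small intestine at 2 h. Member values of that comparison are therefore given as a description, with no test. For the other comparisons, counts and medians over the 9 genes likewise describe a set that was not chosen blind to these libraries.

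Cells take up iron bound to transferrin (Trf, the carrier of iron in plasma) through the transferrin receptor (Tfrc). Iron leaves the endosome through the divalent metal transporter DMT1 (Slc11a2), and iron not bound to transferrin enters through ZIP14 (Slc39a14), which also carries zinc. Ferritin, a shell of heavy (Fth1) and light (Ftl1) chains, stores iron, and the heavy chain oxidises it on entry. Ferroportin (Slc40a1) is the exporter of iron from mammalian cells, with hephaestin (Heph) as its oxidase in the gut, and haem oxygenase 1 (Hmox1) frees iron from haem. In inflammation, macrophages and hepatocytes are known to hold iron back by lowering ferroportin and raising ferritin.

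All animals carried an eGFP reporter, a green fluorescent protein, and the step by which cells were collected is not given in the sources used here. Untreated reporter mice gave 6 libraries from the myenteric plexus and 6 from the submucosal plexus of the small intestine, and 5 and 5 from the colon. Reporter mice that received 1 intraperitoneal injection of LPS from E. coli at 2 mg/kg, or phosphate-buffered saline (PBS), were sampled at 2 h, with 4 libraries for each treatment in small intestine and in colon. At 24 h the mice were Gpr37WT (wild type) or Gpr37-/- (knockout), both with the reporter. In small intestine they gave 6 wild-type PBS, 4 wild-type LPS, 4 knockout PBS and 5 knockout LPS libraries, and in colon 4, 5, 5 and 4 in the same order. All injected animals were sampled in the myenteric plexus, both sexes were used, and age is not given in the sources used here. Untreated and 2 h groups each hold libraries of both sexes, so at least 2 animals, but their labels give no mouse number and do not say whether libraries of one sex came from separate animals. The p-values there measure the spread between libraries, which may in part be technical.

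Several of the genes carry an iron-responsive element, a short RNA hairpin bound by iron regulatory proteins when iron is low. In a 5′ UTR the bound hairpin blocks translation, and in a 3′ UTR it protects the mRNA. The annotated UTRs (GENCODE M21, GRCm38) were searched for a C, 5 stem bases, a loop of CAGTGN with N not G, and 5 bases that pair with the stem. Of 21875 coding genes, 119 (0.544%) held such a site, and 4 of the 9 iron genes did. The sites are shown because they separate the ferritin and ferroportin messages, whose hairpin lies in the 5′ UTR, from that of Tfrc, whose hairpins lie in the 3′ UTR. The loop is in capitals, 5′ to 3′ on the transcript strand. The 4 Tfrc sites are numbered in alphabetical order of their sequences, not by their place along the UTR.
Fth1, 5′ UTR: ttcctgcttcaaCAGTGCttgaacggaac
Ftl1, 5′ UTR: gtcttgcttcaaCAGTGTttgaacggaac
Slc40a1, 5′ UTR: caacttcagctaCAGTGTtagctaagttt
Tfrc, 3′ UTR, first of 4: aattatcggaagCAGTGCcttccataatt
Tfrc, 3′ UTR, second of 4: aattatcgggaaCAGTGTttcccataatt
The other 5 genes had no exact match, which says only that these letters were not in their annotated UTRs. An mRNA count does not measure translation, so the values below do not show what these sites did.

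In RefSeq coordinates of GRCm38.p6, Tfrc lies at chr16:32608896-32632794 on the plus strand and Trf at chr9:103208876-103230286 on the minus strand. Slc11a2 lies at chr15:100387898-100424209 and Slc39a14 at chr14:70303467-70351452, both on the minus strand. Fth1 is at chr19:9980600-9985111 on the plus strand, and Ftl1 at chr7:45457944-45459886 on the minus strand. Slc40a1 is at chr1:45908070-45926532 on the minus strand. Heph, at chrX:96455436-96574485, and Hmox1, at chr8:75093618-75100593, are both on the plus strand.

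Library totals ran from 2547296 to 9002546 counts in the untreated experiment, from 1990744 to 7883251 at 2 h and from 2882539 to 33283346 at 24 h. Expression is given as CPM, the usual unit of a gene's counts relative to its library total, scaled by the trimmed mean of M values (TMM), and a gene is called where its Benjamini-Hochberg adjusted p over all genes is under 0.05 in edgeR's quasi-likelihood test. Gpr37 had at most 3 counts in 17 of 18 knockout libraries, with 9 counts in the other, and also in 4 of 19 wild-type libraries, both libraries of mouse 3 among them, so that wild type below means labelled as such. All 7 glial markers used (Sox10, S100b, Gfap, Foxd3, Ednrb, Erbb3, Fabp7) were detected in every library but 1, in which 6 were. Their summed level was lower in submucosal (135 to 753 CPM) than in myenteric libraries (1061 to 2758 CPM) of untreated mice, with no overlap. Lymphocyte markers (6 genes) ran from 733 to 131800 CPM in submucosal libraries and up to 1101 CPM in myenteric ones. Macrophage markers (10 genes) had medians of 8013 and 3207 CPM in submucosal libraries of small intestine and colon, against 926 and 229 CPM in myenteric ones. Epithelial markers (6 genes) had medians of 2253 and 4338 CPM against 34.3 and 80.3 CPM. Neuronal markers (8 genes) were lower in submucosal libraries without overlap, with values from 544.6 to 1723 CPM in myenteric and from 30.7 to 113.6 CPM in submucosal libraries of small intestine, and from 94.1 to 295.2 and from 28.3 to 58.6 CPM in colon. Smooth muscle markers (6 genes) were also lower in submucosal libraries without overlap, at 72.5 to 1057 against 1188 to 8326 CPM in small intestine and 791.5 to 3264 against 7090 to 22760 CPM in colon, and mesothelial markers (4 genes) were at most 1.08 CPM there. The mitochondrial share of counts was 11.6% to 18.8% in myenteric and 2.84% to 9.43% in submucosal libraries of small intestine, with overlap in colon. These levels differ between the plexuses beside every submucosal difference below, and their part in those differences was not tested.

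CPM per kilobase of exon allow levels of different genes to be compared, and in each of the 16 groups the order of the group means began with Fth1, Ftl1 and Trf. In untreated myenteric plexus of the small intestine these levels (CPM per kilobase) were 4425 for Fth1, 338 for Ftl1, 113 for Trf, 4.39 for Slc40a1, 2.94 for Tfrc, 2.89 for Slc11a2, 2.05 for Hmox1, 0.863 for Slc39a14 and 0.244 for Heph. Of the 6 genes below Trf, Heph, Hmox1 and Slc39a14 had libraries with 0 counts there, while Slc40a1, Tfrc and Slc11a2 had at least 50, 25 and 42 counts in each library.

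In untreated mice the submucosal plexus differed from the myenteric plexus in 6 of the 9 genes in the small intestine, 5 higher and Fth1 lower, where 43.5% of all tested genes were called. In the colon 4 of the 9 were called, Tfrc, Ftl1 and Slc40a1 higher and Fth1 lower, where 21.8% of genes were called. The median log2 fold change over the 9 genes was 1.61 (small intestine) and 0.77 (colon), beside medians over all genes of 0.06 and -0.01. In bulk RNA, fewer cells of a type and less RNA per cell cannot be told apart.

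The 2 ferritin chains moved in opposite directions between the plexuses. Fth1 in the small intestine ranged from 6163 through a median of 6579 to 8359 CPM in myenteric libraries, and from 3520 through 3935 to 4589 CPM in submucosal ones. In the colon Fth1 was at 9105, 7875, 8147, 8461 and 5771 CPM in myenteric and at 3975, 3679, 4275, 4998 and 3037 CPM in submucosal libraries. The groups did not overlap in either region. The log2 fold change was -0.78 ± 0.17 (SE; edgeR, adjusted p = 0.00101) in small intestine and -0.98 ± 0.19 (adjusted p = 0.00135) in colon.

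Ftl1 in the small intestine ranged from 293 through 322 to 377 CPM in myenteric libraries and from 378 through 796 to 910 CPM in submucosal ones. Colon values were 314, 310, 346, 358 and 438 CPM in myenteric and 846, 371, 548, 742 and 504 CPM in submucosal libraries. The groups met at their edges in the small intestine, without overlap, and overlapped in the colon through the submucosal library at 371 CPM. Ftl1 was higher by 1.18 ± 0.21 (SE, log2; edgeR, adjusted p = 0.000141) and by 0.77 ± 0.23 (adjusted p = 0.0198). The colon call was lost without submucosal library M1 (adjusted p = 0.0684) or F2. Reads of ferritin genes can be shared with their processed pseudogenes, and the counted pseudogene Ftl1-ps1 held at most 0.416% of the Ftl1 counts of a library.

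A ratio of Fth1 to Ftl1 counts within a library does not depend on the scaling between libraries. It ranged from 17.8 to 24.7 in myenteric and from 4.27 to 9.57 in submucosal libraries of the small intestine, and from 13.2 to 29.0 and from 4.70 to 9.92 in those of the colon. In both regions every myenteric library was above every submucosal one.

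**Figure D1:**
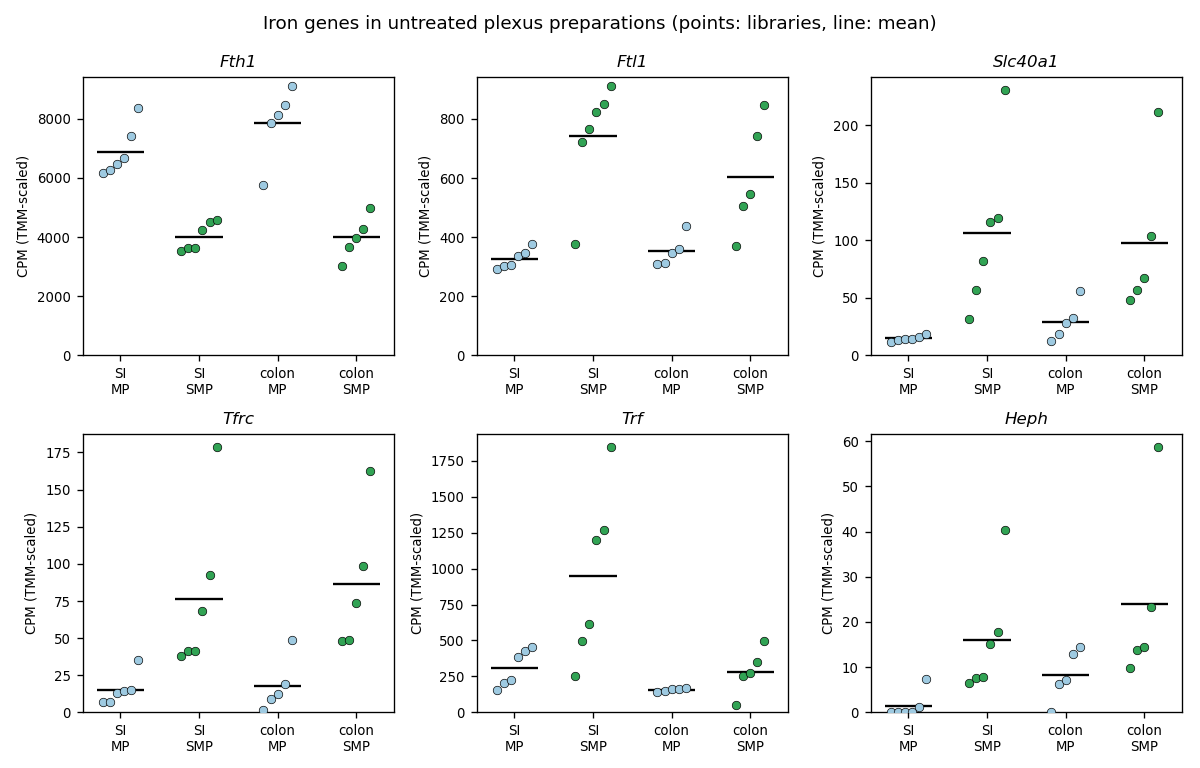
CPM of 6 iron genes in untreated libraries of small intestine (SI) and colon, from myenteric (MP) and submucosal plexus (SMP); each point is a library, each line a group mean, and each vertical axis starts at 0. Fth1 was lower and Ftl1, Slc40a1 and Tfrc were higher in submucosal groups, with single submucosal libraries far above the others for Tfrc, Slc40a1 and Heph.

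Among the uptake genes, Tfrc was higher in submucosal plexus of both regions. In the small intestine it ranged from 6.98 through 13.8 to 35.2 CPM in myenteric and from 37.8 through 54.9 to 178 CPM in submucosal libraries, with no overlap. Colon libraries had 12.6, 8.75, 19.0, 1.47 and 48.6 CPM in myenteric and 73.5, 163, 98.3, 48.0 and 48.9 CPM in submucosal libraries. The overlap in the colon came from the myenteric library F3, whose epithelial marker sum was 2342 CPM. The highest submucosal libraries, M3 of the colon and M1 of the small intestine, had epithelial sums of 7282 and 7831 CPM, also the highest of their groups. The log2 fold changes were 2.33 ± 0.60 (SE; edgeR, adjusted p = 0.00328) and 2.25 ± 0.65 (adjusted p = 0.0170).

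Trf was higher in submucosal plexus of the small intestine and was the 1 gene of the 9 called between regions. In the small intestine it ranged from 158 through 307 to 458 CPM in myenteric and from 256 through 907 to 1844 CPM in submucosal libraries, a log2 fold change of 1.61 ± 0.44 (SE; edgeR, adjusted p = 0.00565). Within the submucosal group the 3 females had 1198, 1844 and 1267 CPM and the 3 males 256, 615 and 499 CPM. Macrophage sums there were 10206, 13466 and 9840 CPM in the females and 2412, 4942 and 6185 CPM in the males. In the myenteric group too the females (387, 458 and 424 CPM) lay above the males (158, 207 and 227 CPM), with macrophage sums of 1187 to 2624 and 165 to 665 CPM.

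In the colon Trf was at 165, 141, 150, 165 and 171 CPM in myenteric libraries, all close together. Colon submucosal libraries had 349, 48.7, 255, 494 and 271 CPM, and the lowest of them, M3, also had the lowest macrophage sum of the submucosal libraries (108 CPM). The colon plexus difference was 0.84 ± 0.48 (adjusted p = 0.219). Colon was below small intestine by -1.74 ± 0.48 in submucosal plexus (edgeR, adjusted p = 0.0355), where 1 of the 9 genes and 5.18% of all genes were called. That call was lost with the 2 groups fitted alone (adjusted p = 0.0984) and without any 1 of 6 of the 11 libraries (M3, F1 or F3 of the colon, or F1, F2 or F3 of the small intestine), with adjusted p of 0.0187 to 0.0974 over the 11.

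Slc11a2 and Slc39a14 were not called between sites. Slc11a2 ranged from 9.33 through 17.8 to 22.1 CPM in myenteric plexus of the small intestine and was at 27.6, 24.1, 31.1, 36.3 and 27.5 CPM in that of the colon. Those groups did not overlap, with a log2 difference of 0.82 ± 0.28 (SE; edgeR, adjusted p = 0.119). Its submucosal levels ran from 10.4 to 34.8 CPM in small intestine and from 21.1 to 32.9 CPM in colon, a plexus difference of 0.59 ± 0.27 (adjusted p = 0.0849) in the former. Slc39a14 stayed between 0 and 22.3 CPM in all untreated libraries, and its adjusted p was 0.315 to 0.715 in the 4 comparisons of 2 sites.

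Between colon and small intestine in the myenteric plexus 0 of the 9 genes were called by edgeR and 0 by DESeq2, where edgeR called 3.19% of all genes, and 4 of the 9 (Trf, Slc11a2, Slc40a1, Heph) had an unadjusted p under 0.05. The median over the 9 genes was 0.82 on the log2 scale there and -0.12 in the submucosal plexus, beside all-gene medians of 0.01 and -0.05. The interaction of plexus and region called 0 of the 9 with either tool, with none at an unadjusted p under 0.05 and 1.19% of all genes called.

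Of the export genes, Slc40a1 had the largest called submucosal excess in the small intestine after Heph. It ranged from 11.7 through 14.3 to 18.9 CPM in myenteric and from 31.9 through 99.2 to 231 CPM in submucosal libraries of the small intestine, with no overlap. Colon values were 18.2, 12.7, 55.8, 27.8 and 32.4 CPM in myenteric and 57.3, 212, 104, 67.7 and 48.2 CPM in submucosal libraries. The colon groups overlapped through the myenteric library M3 at 55.8 CPM. The log2 fold changes were 2.85 ± 0.45 (SE; edgeR, adjusted p = 4.09e-05) and 1.73 ± 0.47 (adjusted p = 0.0120). The colon library at 212 CPM was again M3, with a macrophage sum of 108 CPM and an epithelial sum of 7282 CPM.

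Heph was at or near 0 in myenteric plexus of the small intestine, from 0 through 0.0770 to 7.41 CPM with 3 of 6 libraries at 0, and ran from 6.61 through 11.5 to 40.4 CPM in the submucosal plexus. Colon libraries had 12.8, 7.24, 14.6, 0 and 6.30 CPM in myenteric and 14.4, 58.6, 13.7, 23.3 and 9.88 CPM in submucosal libraries. Heph rose by 3.34 ± 1.04 (SE, log2; edgeR, adjusted p = 0.0124) in the small intestine, and the colon difference was 1.55 ± 1.04 (adjusted p = 0.306). The excess of colon over small intestine in myenteric plexus was 2.38 ± 1.03 (adjusted p = 0.236) with all libraries and 4.54 (adjusted p = 0.0224) without the small intestinal library F3, the one at 7.41 CPM.

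Hmox1, the haem-degrading enzyme, ranged from 0 through 2.27 to 10.8 CPM in myenteric and from 3.38 through 15.8 to 23.9 CPM in submucosal libraries of the small intestine. Its difference of 2.15 ± 0.87 (SE, log2) fell just outside the threshold (edgeR, adjusted p = 0.0502), with adjusted p of 0.0171 to 0.0820 over the 6 alternative analyses. Colon values were 1.09, 8.45, 15.6, 2.29 and 2.27 CPM in myenteric and 8.87, 5.88, 5.35, 13.0 and 7.48 CPM in submucosal libraries (0.44 ± 0.92, adjusted p = 0.776).

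Over all 22 untreated libraries the genes whose log2 CPM followed Trf most closely were Ctsb (a lysosomal protease), Mrc1 (the macrophage mannose receptor), Csf1r (the receptor for macrophage colony-stimulating factor), C5ar1 and Pla2g15, with Pearson r from 0.911 to 0.897. Those nearest to Slc40a1 were Pyroxd2, Hexa, Tlr6, Vasp and Ucp2, with r from 0.879 to 0.868. The libraries share sites and depth, so these values are descriptions.

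At 2 h after LPS in the small intestine Slc40a1 was nearly absent from the counts. With PBS it had 141 (F1), 27 (M2), 183 (F3) and 281 (M4) counts, or 31.1, 13.1, 36.7 and 33.6 CPM. With LPS it had 0, 1, 0 and 0 counts in F1, M2, F3 and M4. In these 4 libraries 3 counts, the upper 95% limit for a count of 0, correspond to 0.389 to 0.602 CPM.

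Pooled over the libraries the Slc40a1 level was 874.4 times lower with LPS, with a 95% interval of 156.4 to 34590 that covers counting error only, and this ratio rests on the 1 count of M2. Several marker sums were measured in the same libraries. The macrophage sum was 645, 358, 1433 and 2147 CPM with PBS and 1191, 288, 1517 and 882 CPM with LPS, with overlap and with 8 to 10 of the 10 markers detected in each LPS library. The glial sum overlapped too, from 1411 to 2189 CPM with PBS and from 1628 to 1934 CPM with LPS. Lymphocyte sums did not overlap, with 13.6 to 36.2 CPM under PBS and 64.8 to 999.5 CPM under LPS and 2 to 6 and 4 to 5 of 6 markers detected. Erythroid sums (5 genes) ran from 313 to 3034 CPM with PBS and from 9.08 to 379 CPM with LPS, with overlap. The part of any of these cells in the Slc40a1 difference was not tested. edgeR called 1 of the 9 genes in this comparison, beside 1.1% of all genes, and nothing is read from that count because these values were known when the set was chosen.

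In the colon at 2 h the same drop was not seen in the counts. Slc40a1 had 16, 1, 39 and 10 counts with PBS (3.72, 0.339, 13.0 and 2.29 CPM) and 0, 6, 36 and 101 counts with LPS (0, 1.20, 14.8 and 27.9 CPM). The groups overlapped, and the log2 fold change was 1.18 ± 1.30 (SE; 95% interval -1.57 to 3.92). PBS libraries of the colon were below those of the small intestine, with no overlap, at medians of 3.01 and 32.3 CPM. Medians of the other experiments ran the opposite way, with colon above small intestine. Untreated myenteric groups had 27.8 against 14.3 CPM. PBS groups at 24 h had 35.4 against 12.9 CPM (wild type) and 30.1 against 13.4 CPM (knockout). The low colon PBS counts at 2 h also left little room to see a fall. No size is given for the difference between the regional responses, since 1 of its arms holds 1 count in 4 libraries. Over the interaction of LPS and region edgeR called 0 of the 9 genes and 0% of all genes, and nothing is read from that count, since it contains the comparison known beforehand.

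**Figure D2:**
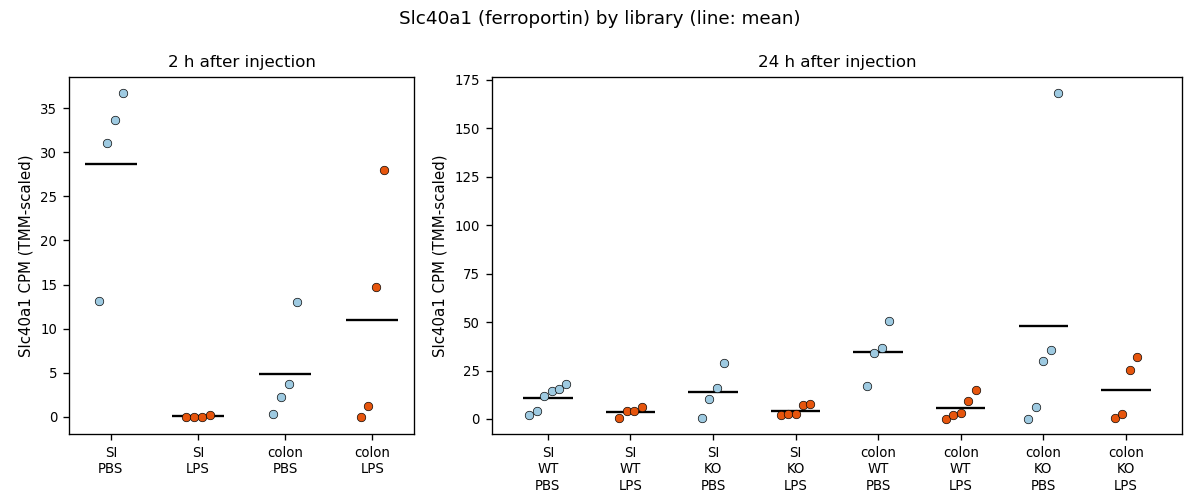
CPM of Slc40a1 by library at 2 h (left) and 24 h (right) after PBS (blue) or LPS (orange); SI is small intestine, WT wild type and KO Gpr37 knockout, and lines are group means. The 4 small intestinal LPS libraries at 2 h lie at 0 to 0.201 CPM, below PBS libraries at 13.1 to 36.7 CPM, while the colon groups overlap.

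For each of the other 8 genes the LPS and PBS libraries overlapped in both regions at 2 h. The errors of several of these differences leave room for large changes. In the colon edgeR and DESeq2 each called 0 of the 9 genes, edgeR called 0.778% of all genes, and 1 of the 9 (Heph) had an unadjusted p under 0.05. The median over the 9 genes was 0.14 in small intestine and 0.16 in colon on the log2 scale, beside all-gene medians of -0.02 and -0.00. Slc11a2 was at 34.4, 1.95, 25.4 and 6.58 CPM with PBS and 25.6, 56.8, 78.8 and 60.0 CPM with LPS in the small intestine, a description of 1.68 ± 0.77 (SE, log2). Colon libraries had 31.7, 24.1, 36.6 and 4.13 CPM with PBS and 82.6, 14.4, 56.6 and 53.7 CPM with LPS (1.10 ± 0.76; edgeR, adjusted p = 0.927). In both regions 3 of 4 LPS libraries were above every PBS library, and 1 was not.

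Slc39a14 at 2 h was at 13.0, 5.84, 0.801 and 0.120 CPM with PBS and 5.45, 27.3, 19.1 and 15.3 CPM with LPS in the small intestine. Colon values were 19.6, 22.7, 12.6 and 0.229 CPM with PBS and 0, 43.0, 6.15 and 12.4 CPM with LPS (0.16 ± 1.39, SE, log2). Its LPS values thus overlapped those of PBS in both regions at this time.

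Neither ferritin chain differed beyond the spread of libraries at 2 h. Fth1 was at 7464, 10521, 6405 and 6359 CPM with PBS and at 8039, 13534, 5875 and 6516 CPM with LPS in the small intestine (0.14 ± 0.32, SE, log2). In the colon the difference was 0.15 ± 0.32 (95% interval -0.53 to 0.83), and library M2 had the highest Fth1 of each of the 4 groups, with 11417 CPM under PBS and 15409 CPM under LPS in the colon. Ftl1 ranged from 263 to 450 CPM with PBS and from 225 to 337 CPM with LPS over both regions, with log2 differences of -0.17 ± 0.20 and -0.24 ± 0.20.

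Tfrc ran from 1.32 to 25.3 CPM with PBS and from 0.600 to 49.8 CPM with LPS over both regions, with log2 differences of 0.08 ± 0.99 (SE) in small intestine and 1.18 ± 1.01 in colon. Trf ran from 74.5 to 350 and from 93.5 to 418 CPM, with differences of 0.14 ± 0.41 and -0.06 ± 0.41. Hmox1 was at most 18.0 CPM in these libraries and at 0 in 3 of 4 libraries of each colon group. Heph in the colon had 32.2 and 4.99 CPM in PBS libraries M2 and F3 and at most 3 counts in the other 2. With LPS it had 0.223, 0.600, 0 and 0 CPM, so that its difference of -5.24 ± 2.34 (edgeR, adjusted p = 0.607) rests on 2 PBS libraries.

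At 24 h Slc39a14 was higher with LPS in all 4 comparisons, by 3.32 to 3.57 on the log2 scale, and Fth1 rose by 1.65 to 1.69 in the 3 in which it was called. edgeR called 2 of the 9 genes in wild-type small intestine, 1 in knockout small intestine, 3 in wild-type colon and 2 in knockout colon, all higher. All tested genes were called at rates of 7.17%, 0.718%, 7.96% and 0.718% in the same order. The medians over the 9 genes were 0.65, 0.54, 0.39 and 0.52 on the log2 scale, beside -0.13, -0.05, -0.03 and -0.07 over all genes. Earlier results of these libraries were known when the 9 genes were chosen. Nothing about iron genes as a set is therefore read from these counts and medians.

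Slc39a14 is known as a gene that inflammation raises in liver. In wild-type small intestine it ranged from 1.87 through 3.42 to 8.00 CPM with PBS and was at 20.3, 25.2, 67.2 and 73.6 CPM with LPS in mice 3, 8, 16 and 13. Knockout values were 3.07, 3.47, 2.27 and 1.32 CPM with PBS and 7.70, 38.7, 34.0, 45.2 and 26.6 CPM with LPS. Neither pair of groups overlapped. The log2 fold changes were 3.42 ± 0.63 (SE; edgeR, adjusted p = 0.000576) and 3.57 ± 0.73 (adjusted p = 0.0105).

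In the colon Slc39a14 was at 4.00, 3.18, 1.86 and 11.0 CPM in wild-type PBS mice and at 63.0, 60.0, 28.1, 107 and 5.28 CPM with LPS in mice 13, 16, 3, 5 and 8. In the knockout it was at 3.89, 3.56, 1.58, 5.46 and 0.901 CPM with PBS and at 7.17, 42.4, 42.9 and 32.4 CPM with LPS. The wild-type groups overlapped through mouse 8 alone, and the knockout groups did not overlap. The fold changes of 3.39 ± 0.72 (SE, log2; edgeR, adjusted p = 0.00398) and 3.32 ± 0.68 (adjusted p = 0.0116) were close to those of the small intestine.

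The wild-type colon call of Slc39a14 was lost when the 2 groups were fitted alone (adjusted p = 0.0540). In the knockout it was lost in 4 of 11 alternatives and without LPS mouse 2 (adjusted p = 0.0508) in the colon, and in 2 of 11 and without PBS mouse 7 (adjusted p = 0.0528) in the small intestine. Its estimate stayed between 2.67 and 4.16 over all of these fits.

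Fth1 rose with it. In wild-type small intestine it ranged from 3574 through 5993 to 9775 CPM with PBS and was at 24173, 13707, 25939 and 20155 CPM with LPS. Knockout libraries had 10461, 6192, 5899 and 4588 CPM with PBS and 14884, 29197, 20792, 17913 and 15003 CPM with LPS. The groups did not overlap in either genotype, with log2 fold changes of 1.69 ± 0.35 (SE; edgeR, adjusted p = 0.00222) and 1.53 ± 0.39 (adjusted p = 0.0515).

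In the knockout small intestine Fth1 thus missed the threshold. It passed in 9 of 11 alternatives and without LPS mouse 11 or 21 or PBS mouse 12, with adjusted p of 0.000900 to 0.188 over the alternatives.

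In the colon Fth1 was at 7481, 6241, 8216 and 8702 CPM with PBS and at 37907, 31700, 14017, 29654 and 6543 CPM with LPS in the wild type. Knockout values were 6889, 7105, 9493, 4515 and 5300 CPM with PBS and 10596, 29347, 22721 and 21498 CPM with LPS. Mouse 8 of the wild-type LPS group lay within the PBS range, and the knockout groups did not overlap. The log2 fold changes were 1.65 ± 0.39 (SE; edgeR, adjusted p = 0.00822) and 1.66 ± 0.37 (adjusted p = 0.0216). Fitted with the 2 groups alone, both calls were lost (adjusted p = 0.0943 and 0.190), and the knockout call was also lost without LPS mouse 17 or 2 or PBS mouse 20 or 7 (adjusted p up to 0.0980).

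Ftl1, the light chain, was not called. Over the 8 groups at 24 h it ranged from 940 to 2307 CPM. Its log2 fold changes with LPS were 0.26 ± 0.18 (SE) and 0.27 ± 0.19 in wild-type and knockout small intestine and -0.11 ± 0.19 and -0.00 ± 0.19 in colon, with 95% intervals from -0.50 to 0.65 over the 4 comparisons.

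**Figure D3:**
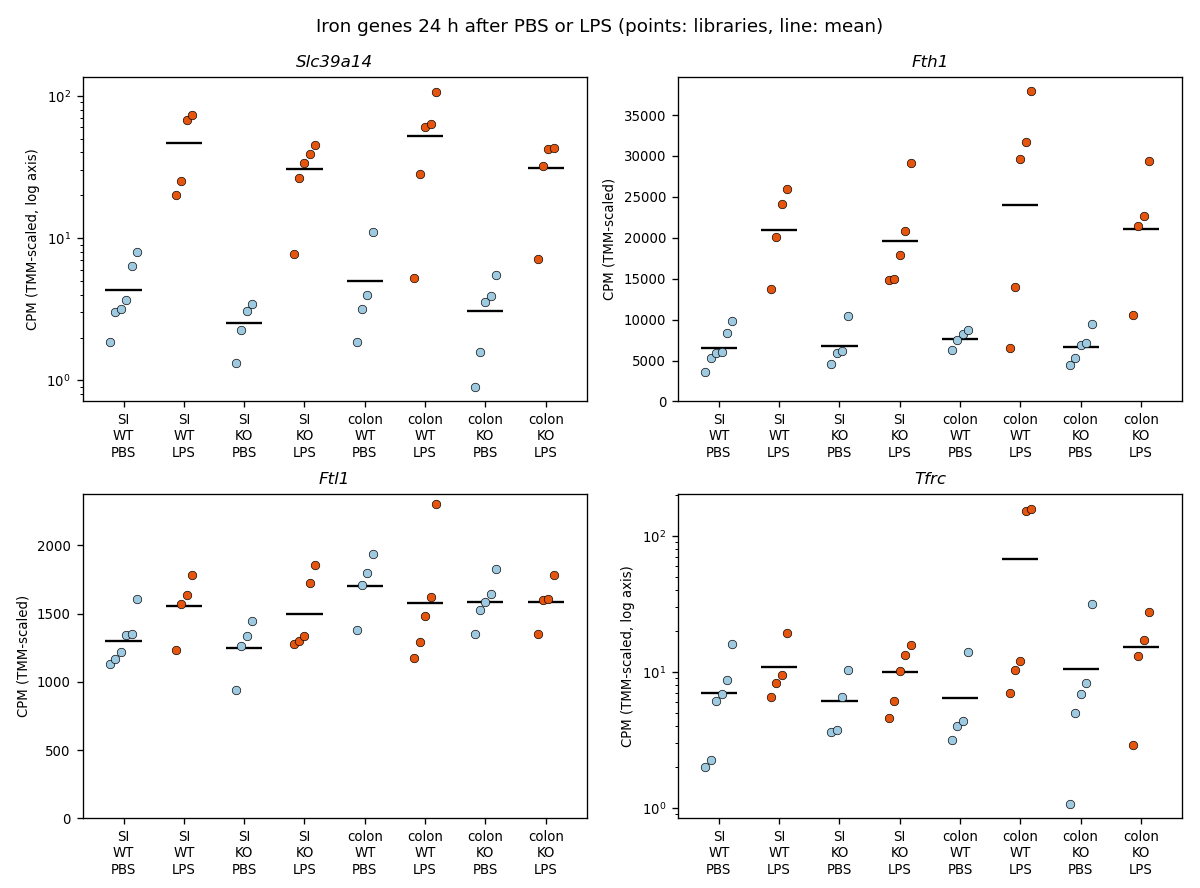
CPM of Slc39a14, Fth1, Ftl1 and Tfrc by library at 24 h after PBS (blue) or LPS (orange), by region (SI, small intestine), genotype (WT, wild type; KO, knockout) and treatment; the axes of Slc39a14 and Tfrc are logarithmic, the others start at 0, and lines are group means. The means of Slc39a14 and Fth1 are higher with LPS in each of the 4 pairs of groups, and both genes overlap in wild-type colon only. Ftl1 overlaps in each pair, and 2 wild-type colon LPS libraries (158 and 152 CPM) stand above all others for Tfrc.

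The Fth1 to Ftl1 count ratio put the same change on a scale free of library normalisation. In small intestine it ran from 2.22 to 7.24 with PBS and from 11.1 to 16.5 with LPS in the wild type, and from 4.29 to 7.83 and from 8.62 to 16.3 in the knockout, without overlap. In colon it ran from 3.47 to 5.42 with PBS and from 5.05 to 25.5 with LPS in the wild type, and from 2.47 to 7.00 and from 6.60 to 18.4 in the knockout. Both colon pairs overlapped at their edges. At 2 h the group medians of this ratio were 23.7 and 25.8 with PBS and 25.3 and 30.9 with LPS. PBS libraries at 24 h thus lay far below PBS libraries at 2 h, with Ftl1 at 940 to 1937 CPM at 24 h and 263 to 450 CPM at 2 h. The 2 times come from separate tables, and experiment and time cannot be told apart there.

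**Figure D4:**
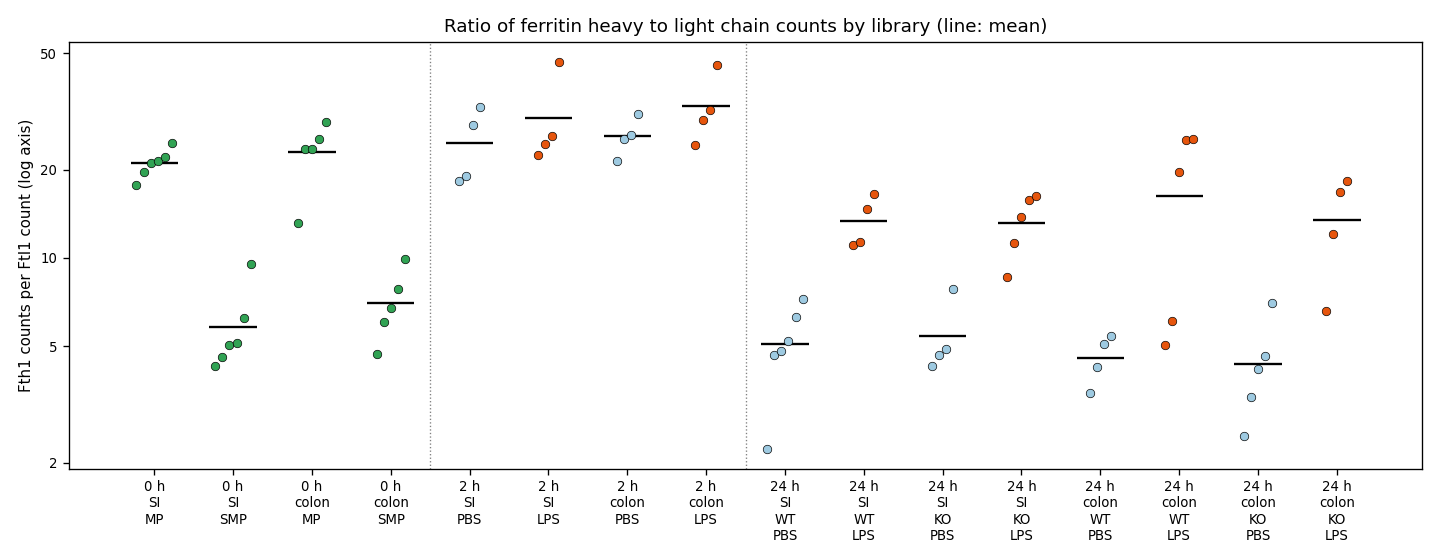
Fth1 counts per Ftl1 count in each library on a logarithmic axis, for untreated mice (0 h, green), 2 h and 24 h (PBS blue, LPS orange), with group means as lines and dotted lines between experiments. Myenteric groups at 0 h and all groups at 2 h have medians of 21.3 to 30.9, submucosal groups and PBS groups at 24 h have medians of 4.19 to 6.74, and LPS groups at 24 h have medians of 13.0 to 19.6.

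Neutrophil markers (8 genes) were higher with LPS at 24 h, with group medians of 63.0 to 752 CPM, against 0.891 to 5.15 CPM with PBS, and 3 to 8 of the 8 were detected in each LPS library. Their part in the rise of Slc39a14 and Fth1 was not tested, and LPS libraries with low sums went both ways. In wild-type colon mice 5 and 16 had sums of 13.4 and 12.9 CPM, below the 150 CPM of PBS mouse 14, with Fth1 at 29654 and 31700 CPM and Slc39a14 at 107 and 60.0 CPM. In wild-type small intestine mouse 16 had 19.1 CPM, below PBS mouse 24 at 22.7 CPM, with Fth1 at 25939 CPM and Slc39a14 at 67.2 CPM. Each of these values was at or above the median of its LPS group.

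The knockout libraries with low neutrophil sums were the low ones. Mouse 11 of the colon had a sum of 3.30 CPM and the lowest Fth1 (10596 CPM) and Slc39a14 (7.17 CPM) of its LPS group. In small intestine mice 21 and 11 had sums of 10.9 and 28.1 CPM, with Fth1 at 15003 and 14884 CPM and Slc39a14 at 26.6 and 7.70 CPM. In the reverse direction, mouse 8 of the wild-type colon had 1969 CPM of neutrophil markers with the lowest Fth1 and Slc39a14 of its group.

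Fibroblast markers (6 genes, all detected) moved with treatment as well. In wild-type colon their sum ran from 14550 to 23360 CPM with PBS and from 703 to 8973 CPM with LPS, without overlap. The other 3 pairs of groups overlapped, with medians of 7698 and 3498 CPM in wild-type small intestine, 8852 and 2383 CPM in knockout small intestine, and 12100 and 15280 CPM in knockout colon (PBS, then LPS). Their part in the changes of the iron genes was not tested.

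Library quality also moved with mouse number. The median share of mitochondrial counts was 15.4% over the 12 libraries of mice up to number 10 and 4.57% over the other 25. With mice 11 and above alone, Slc39a14 and Fth1 were called in wild-type small intestine and colon as before, and of the 2 genes called in knockout colon Fth1 passed and Slc39a14 did not. In knockout small intestine Slc39a14 passed and Fth1 did not, as with all mice. Mice up to number 10 were spread unevenly, with 3 of 5 LPS and 0 of 4 PBS libraries in wild-type colon, 2 of 4 and 1 of 6 in wild-type small intestine, 2 of 5 and 1 of 4 in knockout small intestine and 1 of 4 and 2 of 5 in knockout colon, so that this division and treatment are partly confounded.

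Tfrc, the transferrin receptor, was called in wild-type colon. It was at 3.15, 3.97, 4.35 and 14.1 CPM with PBS, and with LPS at 12.0, 6.95, 158, 10.2 and 152 CPM in mice 13, 16, 3, 5 and 8. The 2 high libraries, of mice 3 and 8, also had the highest epithelial sums of the group, 5935 and 9496 CPM with all 6 markers detected, against 6.19 to 11.8 CPM in the other 3, and the highest lymphocyte sums, 2770 and 1402 CPM. Their part in the result was not tested. Both colon libraries, and that of mouse 5, are among the 4 with at most 3 Gpr37 counts under a wild-type label.

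The log2 fold change of Tfrc was 3.41 ± 0.94 (SE; edgeR, adjusted p = 0.0216) with all libraries. It was 2.84 (adjusted p = 0.0666) without mouse 3 in either region and 0.62 (adjusted p = 0.737) without mice 3 and 8. The call was also lost without the colon library of LPS mouse 8 or of PBS mouse 14, 19 or 22, with adjusted p up to 0.0779. Of 11 alternative analyses 5 kept it, and it was lost with the 2 groups alone (adjusted p = 0.124), with mice 11 and above (0.58, adjusted p = 0.758) and with voom, with or without a mouse term, besides the fits without mouse 3 and without mice 3 and 8. In the other 3 comparisons at 24 h the Tfrc difference was 0.52 to 0.71, and none was called. The response of Tfrc in colon differed between genotypes by -2.89 ± 1.21 (adjusted p = 0.291) and in the wild type between regions by 2.76 ± 1.20 (adjusted p = 0.586).

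Trf was lower with LPS in the small intestine without passing the threshold. It ranged from 241 through 491 to 1501 CPM with PBS and was at 349, 223, 242 and 345 CPM with LPS in the wild type. In the knockout it was at 1034, 780, 448 and 313 CPM with PBS and at 265, 349, 296, 277 and 284 CPM with LPS. The differences were -1.25 ± 0.41 (SE, log2; edgeR, adjusted p = 0.0588) and -1.13 ± 0.41 (adjusted p = 0.220). DESeq2 called the first (adjusted p = 0.0199). In the colon they were -0.66 ± 0.41 and -0.17 ± 0.41.

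Mesothelial markers (4 genes) were measured beside Trf in the small intestine. Their summed level ran from 498 to 2354 CPM with PBS and from 145 to 321 CPM with LPS in the wild type, and from 20.8 to 2694 and from 245 to 795 CPM in the knockout, with 3 or 4 of the 4 detected in each library. The order was not the same in both measures. PBS mice 23 and 12, with the highest Trf of their genotypes (1501 and 1034 CPM), had sums of 1762 and 2342 CPM, and mice 24 and 7, with the lowest Trf (241 and 313 CPM), had 498 and 20.8 CPM. The highest sums, 2354 and 2694 CPM, were those of mice 22 and 15, with Trf at 948 and 780 CPM. The part of these cells in the Trf difference was not tested.

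Slc40a1 was lower with LPS in all 4 comparisons at 24 h, and none was called. In wild-type small intestine it ranged from 1.87 through 12.9 to 17.9 CPM with PBS and was at 0.513, 4.01, 4.12 and 6.29 CPM with LPS. Knockout libraries had 16.2, 10.5, 28.8 and 0.397 CPM with PBS and 2.47, 2.78, 7.51, 7.06 and 2.04 CPM with LPS. The differences of -1.52 ± 1.12 (SE, log2; edgeR, adjusted p = 0.469) and -1.72 ± 1.12 (adjusted p = 0.623) came from overlapping groups.

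In the colon Slc40a1 was at 17.0, 34.1, 36.6 and 50.3 CPM with PBS and at 3.27, 9.22, 2.12, 0 and 14.8 CPM with LPS in the wild type, without overlap. Knockout values were 30.1, 35.7, 6.31, 168 and 0.225 CPM with PBS and 31.9, 2.66, 0.268 and 25.4 CPM with LPS. The differences were -2.54 ± 1.13 (SE, log2; edgeR, adjusted p = 0.154) and -1.67 ± 1.14 (adjusted p = 0.586). The knockout PBS library at 168 CPM, of mouse 20, had an epithelial sum of 8050 CPM.

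Hmox1 and Slc11a2 were each higher with LPS in all 4 comparisons, without a call. Hmox1 was at 7.42 CPM or less in every PBS library but 1 (7.51 CPM) and reached 29.0, 47.6, 14.9 and 38.3 CPM with LPS in wild-type and knockout small intestine and wild-type and knockout colon. Its differences were 2.31 ± 0.95, 2.29 ± 1.05, 0.85 ± 1.01 and 2.06 ± 1.00 (SE, log2; edgeR, adjusted p = 0.139 to 0.644), and the knockout groups did not overlap in either region. Slc11a2 differed by 0.81 ± 0.42, 0.54 ± 0.45, 0.39 ± 0.45 and 1.35 ± 0.44 (adjusted p = 0.177 to 0.739). Heph stayed at or below 23.6 CPM and differed by -1.48 to 0.37, with none called.

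**Figure D5:**
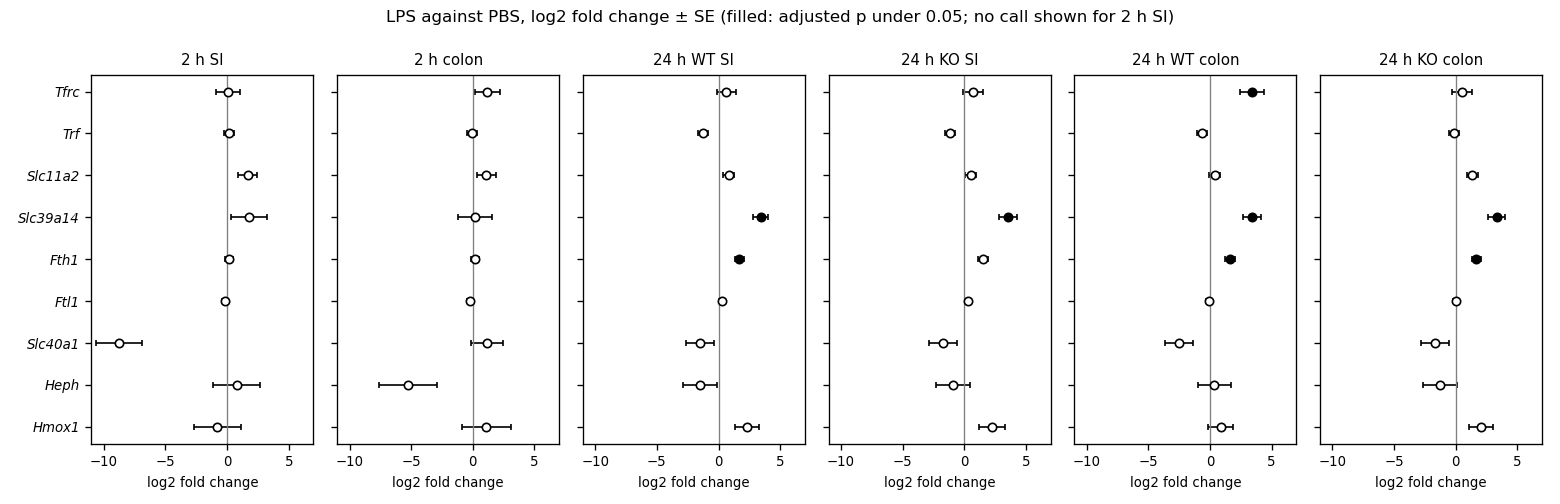
Log2 fold change of LPS against PBS for each iron gene, with bars of 1 SE, in 6 comparisons (SI, small intestine; WT, wild type; KO, knockout); filled points are called by edgeR at an adjusted p under 0.05, and no call is marked at 2 h in small intestine. The 4 panels at 24 h place Slc39a14 between 3.32 and 3.57 and Fth1 between 1.53 and 1.69, with Ftl1 near 0.

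No response of the 9 genes was found to differ between genotypes. The interaction of LPS and genotype called 0 of the 9 genes and 0% of all genes in small intestine (none at an unadjusted p under 0.05) and 0 of 9 and 0% in colon (1 of 9, Tfrc), and DESeq2 called 0 of 9 in both. In small intestine the response of Slc39a14 differed by 0.15 ± 0.88 (SE, log2; 95% interval -1.64 to 1.95) and that of Fth1 by -0.16 ± 0.51 (-1.21 to 0.88). In colon they differed by -0.08 ± 0.94 (-1.99 to 1.84) and 0.01 ± 0.52 (-1.05 to 1.08). These intervals leave room for differences of more than 1 log2 unit.

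The interaction of LPS and region called 0 of 9 genes and 0% of all genes in the wild type (1 of 9, Tfrc, at an unadjusted p under 0.05) and 0 of 9 and 0% in the knockout (none), with 0 by DESeq2 in both. Here the regions were sampled from the same mice in part, and with mouse as a random term the counts were also 0.

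Knockout and wild type were also compared within each treatment. With PBS, edgeR called 0 of 9 iron genes and 0% of all genes in small intestine and 0 of 9 and 0% in colon, with none of the 9 at an unadjusted p under 0.05 in either. With LPS it called 0 of 9 and 0.0134% of genes in small intestine (none at an unadjusted p under 0.05) and 0 of 9 and 0.429% in colon (2 of 9). DESeq2 called 0 of 9 in each of the 4. The 2 genes in LPS colon were Tfrc, lower in the knockout by -2.16 ± 0.88 (SE, log2; edgeR, adjusted p = 0.217), and Trf, higher by 1.06 ± 0.41 (adjusted p = 0.201), whose groups did not overlap at 297 to 406 against 90.7 to 265 CPM.

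A wider list of 61 genes of iron and haem metabolism, chosen like the 9 with earlier results known, had 51 tested genes in untreated libraries, 52 at 2 h and 54 at 24 h. With LPS at 24 h it had 4 of 54 genes higher and 1 lower in wild-type small intestine (7.17% of all genes were called), 3 and 1 in wild-type colon (7.96%), 2 and 0 in knockout small intestine (0.718%) and 3 and 0 in knockout colon (0.718%). The counts in the wild type are thus near the share over all genes. Cp encodes ceruloplasmin, the plasma and glial ferroxidase that works with ferroportin. In wild-type small intestine its mean with LPS was 534 CPM, a log2 fold change of 4.36 ± 0.48 (SE; edgeR, adjusted p = 4.49e-07). It rose by 3.33 ± 0.53 (adjusted p = 0.00134) in knockout small intestine, 2.09 ± 0.50 (adjusted p = 0.00939) in wild-type colon and 2.55 ± 0.48 (adjusted p = 0.00703) in knockout colon, there from a mean of 85.9 to 504 CPM.

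Lcn2, the siderophore-binding lipocalin 2, was called in the same 4 comparisons, by 9.00 ± 1.12, 6.38 ± 1.19, 3.88 ± 1.05 and 5.97 ± 1.07 (SE, log2), in the order of Cp. Hp, the haemoglobin scavenger haptoglobin, rose by 5.14 ± 1.31 (edgeR, adjusted p = 0.0128) in wild-type small intestine and by 6.72 ± 1.52 (adjusted p = 0.0219) in knockout colon. Cybrd1, a duodenal ferric reductase, fell in the wild type, from a mean of 9.59 to 0.185 CPM in small intestine and from 2.73 CPM to 0 in all 5 LPS libraries of the colon. Both Lcn2 and Hp are abundant in neutrophils, whose marker sums are given above.

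At 2 h edgeR called 0 of 52 genes of the list in colon, where 0.778% of all genes were called. In small intestine, where 1.1% of all genes were called and the values were known beforehand, 2 of 52 were called, Lcn2 and Bach1, and nothing is read from that count. Bach1, the haem-sensing repressor of Hmox1 and ferritin genes, had means of 8.07 CPM with PBS and 67.2 CPM with LPS there, with no overlap, and Lcn2 had means of 1.20 and 39.5 CPM.

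Between the untreated plexuses the wider list split in both directions, with 11 of 51 genes higher and 8 lower in submucosal plexus of the small intestine, where 43.5% of all genes were called, and 7 and 8 in colon, where 21.8% were. Among the largest differences, Cd163, the haemoglobin-haptoglobin receptor of macrophages, was higher by 2.65 ± 0.80 (SE, log2) in small intestine and 3.06 ± 0.96 in colon. Steap4, a metalloreductase, was lower by -4.71 ± 0.71 and -2.63 ± 0.68, and Flvcr2, named as a haem transporter, by -3.67 ± 0.74 and -2.98 ± 0.77. Slc22a17, known as a lipocalin 2 receptor, was lower by -4.11 ± 0.56 in small intestine, and Lcn2 by -3.40 ± 1.11 in colon, where Id1, a target of the signalling that controls hepcidin, was higher by 3.36 ± 0.66. Between colon and small intestine Cd163 was lower in colon in both plexuses (-3.78 ± 0.96 and -3.37 ± 0.89), Cp was higher in the myenteric plexus (1.81 ± 0.47) and Steap4 in the submucosal plexus (3.59 ± 0.70). Between the plexuses the list's median was 0.24 in small intestine and 0.28 in colon, beside 0.06 and -0.01 over all genes.

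By the same measure of likeness, over the 37 libraries at 24 h Trf was followed most closely by Creg1, Rspo1, Bcam, Smim1 and Vwa3a (Pearson r from 0.812 to 0.726). Slc40a1 was followed by Sertad4, Cysltr1, Gstm2, Scube2 and Cd55 (r from 0.749 to 0.734). Over the 16 libraries at 2 h the nearest genes were Ndrg1, Sash3, Slc35a2, Aldh1a1 and Col11a1 for Trf (r from 0.866 to 0.822) and Ears2, Prps1l3, Hmgb1, Psmd5 and Amer1 for Slc40a1 (r from 0.810 to 0.735). None of the 10 genes named for either gene at 24 h was among those named at 2 h or in untreated mice.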

How the data were processed

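The deposited files are raw counts per gene, made by the authors from Smart-seq2 libraries of RNA isolated with a micro column kit, per the labels' protocols. Trim Galore 0.4.4, STAR 2.5.3, DESeq2 and GRCm38 are listed in the submitters' processing notes; the counter, its annotation and its strand setting are not given in the sources used here. The 9 genes, the wider list and the markers were chosen with earlier results of these data known. Named genes were all 9 members and genes of the wider list from among the 4 largest called differences of a comparison. Not every such gene of the wider list is named. For Slc40a1 and Trf the 5 closest genes by Pearson correlation of log2 CPM (prior count 2) were named too, leaving out predicted genes.

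The untreated, 2 h and 24 h libraries were each fitted in one model of group means with edgeR 4.0.16 in R 4.3.3 (TMM, filterByExpr, glmQLFit, two-sided glmQLFTest), with Benjamini-Hochberg adjustment over the 14090, 13107 and 14903 genes tested in 20 comparisons. SE came from the log2 fold change and its F statistic. DESeq2 1.42.0 and limma 3.58.1 (voom) served as alternatives, and the script was tested on simulated counts. At 24 h small intestine and colon of 15 mice were both present, which pairs libraries by animal: their deviations from group means correlated at r = 0.136 on average, and at -0.00177 between other libraries. Iron-responsive elements were read from GENCODE M21 transcripts, and positions from RefSeq (GRCm38.p6). Some marker genes and the name of the reporter are not reported here.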

Additional observations from a re-analysis of the deposited data

Results flagged for a closer look

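A library was marked where its gap to the nearest library of its group was large for the range of the group (Dixon's 95% criterion), which chance alone marks in about 1 of 20 groups. Of the 144 sets of a gene and a group, 16 were marked, and 15 of these were the highest library of their group. In untreated myenteric plexus of the small intestine they were Tfrc in M2 (35.2 CPM), Heph in F3 (7.41 CPM) and Hmox1 in F3 (10.8 CPM). In submucosal plexus they were Heph in M3 of the colon (58.6 CPM), Heph in M1 of the small intestine (40.4 CPM) and Ftl1 in M1 of the small intestine, the 1 lowest library (378 CPM). The submucosal libraries M1 of the small intestine and M3 of the colon also had the highest Tfrc and epithelial sums of their groups.

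At 2 h they were Tfrc in M4 (23.2 CPM), Heph in M2 (32.2 CPM) and Hmox1 in F3 (2.99 CPM) of colon with PBS, Hmox1 in F3 of colon with LPS (6.56 CPM), and Slc40a1 in M2 of small intestine with LPS (0.201 CPM, which is 1 count). At 24 h they were Tfrc in wild-type colon with PBS of mouse 24 (14.1 CPM), Tfrc and Slc40a1 in knockout colon with PBS of mouse 20 (31.3 and 168 CPM), Trf in knockout colon with PBS of mouse 7 (761 CPM) and Heph in knockout small intestine with LPS of mouse 21 (6.90 CPM). Mouse 7 of the knockout colon also had macrophage and lymphocyte sums of 1766 and 1671 CPM, the highest of its group.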

How the results depend on the processing

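Of 180 results (9 genes in 20 comparisons), 20 were called. Of these, Slc40a1 with LPS at 2 h in small intestine is a description. The others kept their direction under every alternative run, while 71 of the 160 uncalled ones changed it in at least 1. The number of genes called moved by over 1.5 times as follows. With the compared groups fitted alone it was 0 for colon against small intestine in submucosal plexus (1 with all groups), 0 for LPS in wild-type colon at 24 h (3) and 0 in knockout colon (2). DESeq2 gave 1 gene, not 0, for the interaction at 2 h, a description since it contains the comparison known beforehand. In knockout small intestine at 24 h it was 2, not 1, with RLE size factors, DESeq2, no filter, sex or the division of mice at number 10 as a covariate, and without mouse 3 or mice 3 and 8. In knockout colon it was 1, not 2, with voom and no mouse term and with mice 11 and above. Smaller moves were from 6 to 7 (RLE, block) or 8 (DESeq2) between plexuses in small intestine, from 2 to 3 for LPS in wild-type small intestine (DESeq2, sex covariate, mice 11 and above), and from 3 to 2 in wild-type colon (both voom fits, mice 11 and above, without mouse 3, without mice 3 and 8). Leaving out 1 library gave 0 to 1 for the region comparison in myenteric plexus, 0 to 1 for that in submucosal plexus, 0 to 1 for LPS in small intestine at 2 h, and 0 to 2 in knockout small intestine and in knockout colon at 24 h. The alternatives chosen after seeing the data were 3 (without mouse 3, without mice 3 and 8, voom with no mouse term).

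With a replicate block, 0 genes were called for LPS in small intestine at 2 h (1 without the block) and 1 in knockout colon at 24 h (2), where voom without the block also gave 1; 174 of the 180 results stayed on the same side of the threshold. At 0 h and 2 h libraries share only a number: same-numbered libraries correlated at r = 0.0951 (12 of 30 pairs over 0.1) and 0.0606 (5 of 24 pairs) in their deviations from group means.

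Over all genes, DESeq2 called 527 and 474 genes for LPS in knockout small intestine and colon at 24 h, where edgeR called 107 in each, and with the 2 groups alone 47 and 7 were called. In the wild type edgeR and DESeq2 called 1069 and 1875 genes in small intestine and 1186 and 2255 in colon, with 1704 and 412 for the 2 groups alone and 521 and 752 without mice 3 and 8 (207 and 203 in the knockout). The voom fits with and without a mouse term gave 1685 and 1696 in wild-type small intestine, 1901 and 1861 in wild-type colon, 176 and 158 in knockout small intestine and 69 and 65 in knockout colon. At 2 h edgeR and DESeq2 called 144 and 261 in small intestine and 102 and 277 in colon (63 with the 2 groups alone), and in untreated mice 449 and 987 between regions in myenteric plexus (246 with the replicate block), 730 and 1149 in submucosal plexus, and 168 and 577 for the interaction. Between plexuses in untreated colon edgeR called 3069 genes, and 1902 with the 2 groups alone. For the interactions with LPS edgeR called 0 genes each and DESeq2 44 at 2 h and 59 to 340 at 24 h, and for knockout against wild type 0 to 64 and 58 to 719. The 64 were in colon with LPS, and were 0 with the 2 groups alone, 14 with no filter and without mouse 3, 40 with the division of mice as a covariate and 334 with mice 11 and above. Settings other than DESeq2 gave 0 to 25 genes for the interactions at 24 h and 0 to 23 for the other genotype comparisons. Heph and Hmox1 had libraries at 0 counts, which limits their precision, and Slc40a1 varied from 0.225 to 168 CPM between libraries of one group (knockout colon with PBS).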
